A study of Homo sapiens with 2 samples.

Results

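Interferon-stimulated genes were described here in PC3, a human prostate cancer cell line, as 47 of the 13864 genes that the platform annotation named. The series holds 2 samples. One stable PC3 line overexpressed a control microRNA and the other overexpressed miR-95, both grown in DMEM with fetal bovine serum. Total RNA of each line was labelled with biotin and hybridised to 1 Affymetrix gene array. Neither culture was stated to have received interferon or virus, and the labels do not say whether each line was a pool or a single clone. With 1 array in each group there is no replicate error and no test, so every value compares these 2 RNA samples.

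Members were 23 genes listed by symbol, of which 20 had a probe set, and 27 further genes whose symbols start as those of the IFI, IFIT, IFITM, OAS, GBP or IRF families do. The listed symbol DDX58 was found under its current name, RIGI. No probe set used here named STAT2, MX1 or CMPK2. The symbol pattern also took in IRF2BP1, IRF2BP2 and IRF2BPL, which bind IRF2 and are not interferon regulatory factors themselves, and the pseudogene IFITM4P. Every one of the 47 genes was read by 1 probe set.

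Type I interferons are cytokines that cells release when cytosolic receptors or Toll-like receptors detect foreign nucleic acid. They act through JAK kinases on a complex that includes STAT2 and IRF9 and binds the interferon-stimulated response element in promoters, turning on a large set of antiviral genes. Many of these genes keep a low level of expression in epithelial cancer cells without added interferon. miR-95 is a small RNA that lowers messenger RNAs carrying matches to its seed.

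The mature sequences of miR-95 are shown because overexpression of this microRNA is the difference between the lines that the labels state. They were taken from RefSeq (GRCh38.p14). Capitals mark the seed, bases 2 to 8. The miR-95 gene had no named probe set, so its level could not be checked, and target sites in members were not searched.
hsa-miR-95-3p: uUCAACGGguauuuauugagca
hsa-miR-95-5p: uCAAUAAAugucuguugaauu

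The promoters of the neighbouring pairs SAMD9 and SAMD9L, and IFI44 and IFI44L, are shown because these 4 genes had the most negative differences among the detected members. The promoter of ISG15, a much used marker of interferon signalling with a small difference, is set beside them. Each window runs from 250 bases before to 50 bases after the RefSeq start of the gene (GRCh38.p14), in the direction of transcription. Capitals mark matches to the interferon-stimulated response element, here the letters GAAA followed, after any 2 bases, by GAAA again, searched on both strands. In the SAMD9L window, which has no such match, they mark the shorter AAANNGAAA (the same without its first base), a spelling chosen after that window had been read.
SAMD9, chr7:93117930-93118229, minus strand: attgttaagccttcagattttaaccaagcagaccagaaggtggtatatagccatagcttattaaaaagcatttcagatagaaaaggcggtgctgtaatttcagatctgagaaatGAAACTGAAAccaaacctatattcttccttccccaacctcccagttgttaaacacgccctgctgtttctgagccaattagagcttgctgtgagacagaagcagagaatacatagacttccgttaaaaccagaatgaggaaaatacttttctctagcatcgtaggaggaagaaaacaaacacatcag
SAMD9L, chr7:93148336-93148635, minus strand: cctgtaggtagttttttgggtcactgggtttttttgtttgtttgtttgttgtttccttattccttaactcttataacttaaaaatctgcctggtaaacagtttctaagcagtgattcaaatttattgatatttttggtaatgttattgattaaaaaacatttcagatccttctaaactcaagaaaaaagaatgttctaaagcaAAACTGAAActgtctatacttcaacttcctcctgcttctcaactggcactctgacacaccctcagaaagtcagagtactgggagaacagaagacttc
IFI44, chr1:78649539-78649838, plus strand: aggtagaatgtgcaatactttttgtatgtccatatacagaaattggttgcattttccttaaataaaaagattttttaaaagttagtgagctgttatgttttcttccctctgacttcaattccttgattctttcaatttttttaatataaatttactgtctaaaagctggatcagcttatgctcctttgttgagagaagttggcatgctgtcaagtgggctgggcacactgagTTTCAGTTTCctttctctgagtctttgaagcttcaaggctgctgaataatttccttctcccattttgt
IFI44L, chr1:78620198-78620497, plus strand: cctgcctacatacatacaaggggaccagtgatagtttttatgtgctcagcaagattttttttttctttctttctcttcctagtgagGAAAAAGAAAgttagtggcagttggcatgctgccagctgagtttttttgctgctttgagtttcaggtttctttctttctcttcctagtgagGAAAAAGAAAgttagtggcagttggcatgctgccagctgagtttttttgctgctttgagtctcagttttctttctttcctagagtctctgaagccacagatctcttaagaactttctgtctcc
ISG15, chr1:1013247-1013546, plus strand: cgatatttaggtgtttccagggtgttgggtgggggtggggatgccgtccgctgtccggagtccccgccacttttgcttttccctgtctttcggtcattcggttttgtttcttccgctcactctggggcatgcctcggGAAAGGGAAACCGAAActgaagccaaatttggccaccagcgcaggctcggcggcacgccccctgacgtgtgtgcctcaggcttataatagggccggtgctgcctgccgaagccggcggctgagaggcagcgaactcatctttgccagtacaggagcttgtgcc

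The SAMD9 window holds 1 match, which begins 136 bases before the start. In SAMD9L the shorter spelling begins 47 bases before the start. The IFI44 match is on the opposite strand and begins 18 bases before the start. IFI44L holds 2 matches, 164 and 73 bases before the start, inside an 85-base stretch that occurs 2 times in the window, 91 bases apart. ISG15 holds 2 matches that overlap, at 113 and 107 bases before the start. A match is a string of letters and not a measured binding site.

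The deposited values are log2 expression values. A gene counted as detected when it read at or above the median of all genes on at least 1 array (7.46 for control, 7.495 for miR-95), which kept 7081 genes and 27 of the 47 members. Of the detected members, 26 reached the median on both arrays and 1, IFI44, through the control array alone. Differences are miR-95 minus control after each array was centred on its median, a step that lowered miR-95 by 0.035. Over the detected genes the median difference was -0.035, and the 5th and 95th percentiles were -0.325 and 0.265. Differences between probe sets of the same gene, in 68 detected genes, corresponded to a spread of 0.126 for 1 difference and 0.178 for the gap between 2 differences, which holds no variation between cultures.

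Of the 27 detected members, 4 had miR-95 values at least 1.5-fold below control, beside 0.861% of all detected genes. None was at least 1.5-fold higher, beside 0.395% of all detected genes. The 4 were SAMD9, IFI44, IFI44L and SAMD9L. The members, these 4 among them, were chosen with earlier results of these data known. The count set beside the share of all detected genes therefore cannot show an excess. Under this detection rule the members as a set lay close to all detected genes in sign. They had 16 negative and 11 positive differences, or 59.3% negative. Of all detected genes, 59.4% were negative and 40.6% positive. These shares depend on the detection rule and the centring. At the 25th percentile of the higher array, 69.2% of kept members were negative, beside 56.99% of all kept genes. With no filter on dim genes, 65.96% of members were negative, beside 56.87% of all genes. At the 75th percentile, 4 of 8 members and 61.97% of kept genes were negative. Detection by the mean of both arrays gave 57.7% and 59.5%. Without the IRF2 binding proteins and pseudogene, 65.2% of detected members were negative. With the values as deposited, 48.0% of all detected genes and 51.9% of detected members were negative. After centring, the median of the 27 detected members was -0.085. Without SAMD9, IFI44, IFI44L and SAMD9L, the 4 lowest detected members, 12 of 23 were negative and the median was -0.005. Leaving out the lowest values moves both figures this way by construction, so they do not describe how the remaining members compare with all genes. In RNA from whole cultures, fewer expressing cells and less RNA per cell cannot be told apart.

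**Figure D1:**
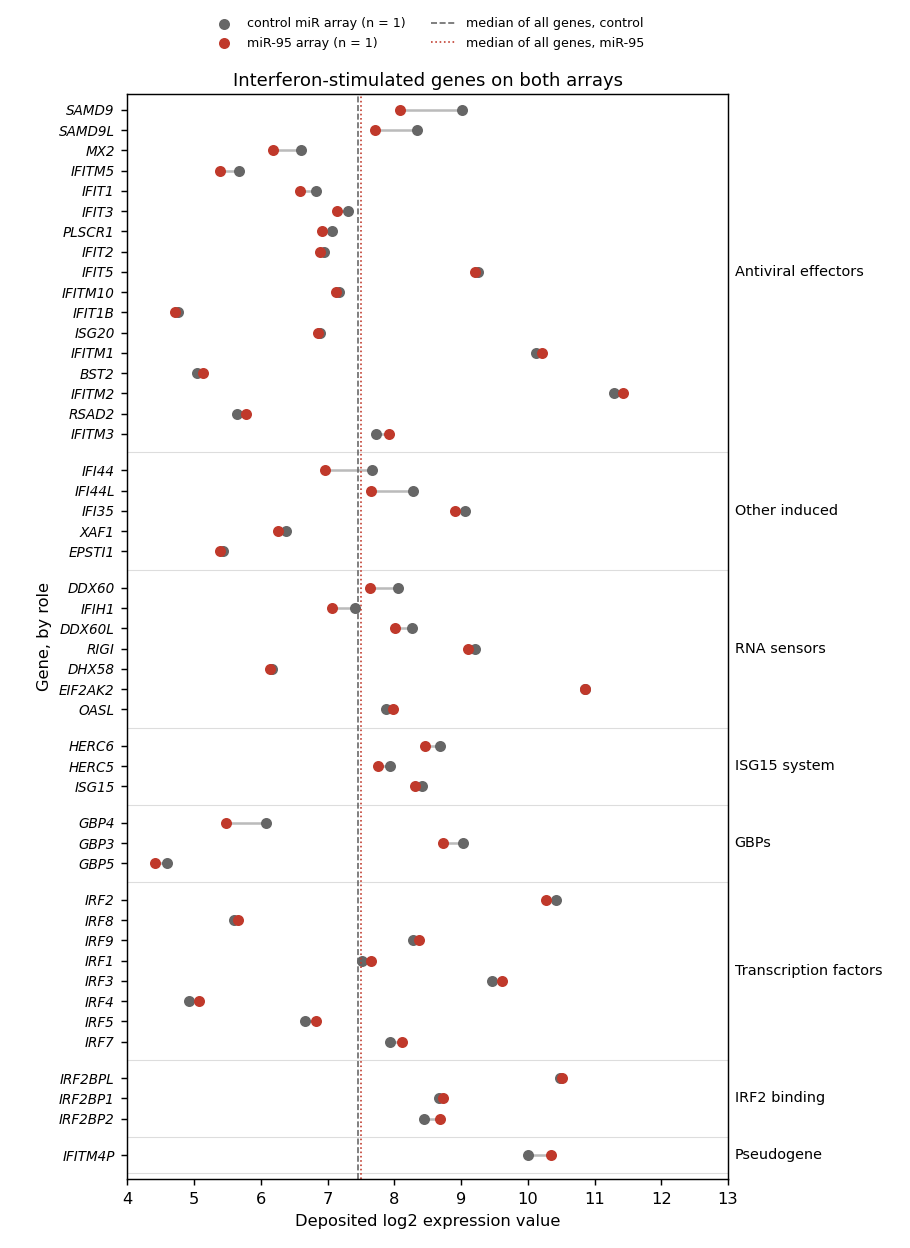
Deposited log2 values (horizontal axis) of the 47 members on the control miR array (grey) and the miR-95 array (red), by role, with the median of all genes on each array as a vertical line; n = 1 array per group. SAMD9, SAMD9L, IFI44 and IFI44L show the widest gaps among detected members, all with the red point to the left.

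SAMD9 and SAMD9L encode large cytoplasmic proteins that restrict poxviruses and slow cell growth. SAMD9 read 9.02 on the control array and 8.08 on the miR-95 array. After centring it was 1.97-fold lower (log2 difference -0.975), the 4th most negative of the 7081 detected genes. SAMD9L read 8.34 on the control array and 7.71 on the miR-95 array. It was 1.59-fold lower (-0.665) and shared the 30th place. Both genes stayed above the array median in both lines. The difference of SAMD9 was 0.31 further below 0 than that of SAMD9L, or 1.74 times the probe-set spread of such a gap, with no test.

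IFI44 and IFI44L are paralogs strongly induced by type I interferon, whose biochemical roles are less settled. IFI44 read 7.66 on the control array and 6.96 on the miR-95 array, where it lay below the median of all genes. It was 1.66-fold lower (-0.735) and ranked 19th, but entered the detected set through the array on which it was high. IFI44L read 8.28 and 7.65, above the median on both arrays, and was 1.59-fold lower (-0.665). The differences of IFI44 and IFI44L lay 0.07 apart, or 0.393 times that spread. Whether either gap would recur in other cultures cannot be read from 1 array per group. The probe sequences were not used here, and signal shared between the similar transcripts of a pair was not tested.

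In RefSeq order the members of each pair are neighbours, SAMD9 and SAMD9L on chromosome 7 and IFI44L and IFI44 on chromosome 1. The 3 named protein-coding genes on each side, 12 in all, were looked up to see whether adjacent genes had like differences. Only 7 had a probe set used here. FAM133B, DNAJB4, GIPC2, TTLL7 and the gene next to IFI44, ADGRL4, had none. Next to SAMD9, the cell cycle kinase gene CDK6 read 9.84 on the control array and 10.04 on the miR-95 array (0.165), and RBM48 differed by -0.005. On the SAMD9L side, HEPACAM2 and CALCR were below the detection rule, and VPS50, a gene of endosomal recycling, read 9.04 and 8.81 (-0.265). Beside IFI44L, the prostaglandin receptor gene PTGFR read 7.70 and 7.52 (-0.215). Beyond IFI44, ADGRL2, an adhesion receptor gene, read 8.47 and 8.73 (0.225). None of the 7 flanking genes measured, 5 of them detected, passed 1.5-fold in either direction.

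**Figure D2:**
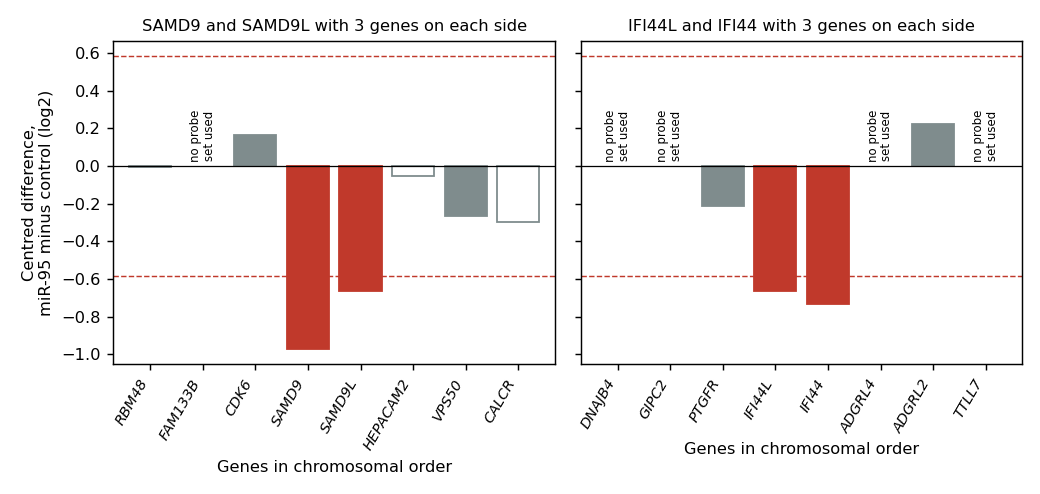
Centred log2 difference (vertical axis) of the 2 pairs and of the 3 named protein-coding genes on each side, in chromosomal order. Genes without a probe set used here are marked and have no bar. Filled bars are detected genes, open bars are genes below the detection rule, dashed lines mark 1.5-fold, and bars have no error because n = 1 array per group; the red bars of the pairs pass the lower line and the flanking bars lie between -0.295 and 0.225.

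Among RNA sensors and enzymes that respond to double-stranded RNA, 5 of 7 genes were detected, 4 with negative and 1 with a positive difference, and 0 passed 1.5-fold. DDX60, a helicase reported to promote RIG-I signalling, read 8.06 on the control array and 7.64 on the miR-95 array. It was 1.37-fold lower (-0.455), below the 5th percentile of detected genes. Its neighbour and paralog DDX60L read 8.26 and 8.01 (-0.285). RIGI, the sensor of viral RNA with a free triphosphate end, read 9.21 and 9.10 (-0.145). EIF2AK2, the kinase PKR that halts translation, read 10.86 on both arrays. It counts as negative only through the centring (-0.035). OASL, an oligoadenylate synthetase-like protein, read 7.87 and 7.98 (0.075).

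The other sensors, IFIH1 and DHX58, lay below the detection rule. IFIH1, which encodes the long RNA sensor MDA5, read 7.41 and 7.07 (-0.375), just under the control median. DHX58, its regulator LGP2, read 6.16 and 6.13 (-0.065). DDX60 and IFIH1 thus had the widest gaps in this role, and RIGI, DHX58, EIF2AK2 and OASL each differed by less than 0.15 in size.

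ISG15, the ubiquitin-like modifier, read 8.41 on the control array and 8.31 on the miR-95 array (-0.135). HERC5, the main ligase that attaches it to proteins, read 7.94 and 7.75 (-0.225). HERC6, the neighbouring related gene, read 8.69 and 8.46 (-0.265). All 3 were negative, beside 59.4% of all detected genes, and all lay between the 5th percentile and the median of detected genes. HERC5 and HERC6 differed from each other by 0.04, less than the probe-set spread of such a gap.

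Guanylate binding proteins are GTPases that attack the membranes of intracellular microbes. Of 3 genes measured only GBP3 was detected, at 9.03 on the control array and 8.73 on the miR-95 array (-0.335, 1.26-fold lower). GBP4 was at least 1.5-fold lower below the detection rule (6.07 and 5.48, difference -0.625), where 0.988% of 6783 genes were. No member below the rule was at least 1.5-fold higher, beside 0.457% of those genes. GBP5 was also below the rule (4.59 and 4.42, difference -0.205). All 3 differences were negative, beside 56.9% of all 13864 genes.

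The proteins of IFITM1, IFITM2 and IFITM3 block fusion of viruses with cell membranes. IFITM1 read 10.13 and 10.21 (0.045), IFITM2 read 11.29 and 11.42 (0.095), and IFITM3 read 7.73 and 7.92 (0.155). The pseudogene IFITM4P read 10.01 and 10.35 (0.305), the most positive of the detected members. Genes of this family are alike in sequence, so signal shared between their probe sets was not separated here. IFITM5 and IFITM10, below the rule, differed by -0.315 and -0.075.

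The IFIT proteins bind viral RNA that lacks the marks of host RNA. Of the 5 neighbouring genes on chromosome 10 only IFIT5 was detected, at 9.26 on the control array and 9.21 on the miR-95 array (-0.085). IFIT1, IFIT2, IFIT3 and IFIT1B lay below the rule and differed by -0.265, -0.095, -0.195 and -0.075. The 5 differences were thus all negative, beside 56.9% of all 13864 genes, and 0 of them passed 1.5-fold. Those of IFIT5, IFIT2 and IFIT1B were smaller than the probe-set spread of 0.126.

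The remaining effectors were below the detection rule on both arrays. MX2, a GTPase that restricts retroviruses, read 6.60 and 6.18 (-0.455). RSAD2, the radical enzyme viperin, read 5.64 and 5.78 (0.105). BST2, which tethers budding virions, read 5.04 and 5.13 (0.055). The exonuclease gene ISG20 and the phospholipid scramblase gene PLSCR1 differed by -0.065 and -0.185. In the dim range differences scattered more, with a robust SD of 0.193 over the 6783 genes below the rule against 0.148 over detected genes.

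Of the induced genes with other or less known roles, IFI35 was detected beside IFI44 and IFI44L. It read 9.06 on the control array and 8.91 on the miR-95 array (-0.185). XAF1, which promotes apoptosis, and EPSTI1 were below the rule and differed by -0.155 and -0.085.

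Of 5 detected interferon regulatory factors, the transcription factors of the pathway, 4 had positive differences after centring, and 0 passed 1.5-fold. Of all detected genes, 40.6% were positive after centring. Of the 4, only IRF7 differed by more than the probe-set spread of 0.126. IRF9, the DNA-binding subunit of the complex that interferon activates, read 8.28 on the control array and 8.37 on the miR-95 array (0.055). IRF7, which amplifies interferon production, read 7.93 and 8.11 (0.145). IRF3, which starts it, read 9.47 and 9.61 (0.105). IRF1 read 7.52 and 7.65 (0.095). IRF2, an antagonist of IRF1, read 10.43 and 10.28 (-0.185). All 5 lay within the 5th to 95th percentile of detected genes.

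IRF4, IRF5 and IRF8, factors best known from immune cells, were below the detection rule and differed by 0.105, 0.135 and 0.025. Of the IRF2 binding proteins, IRF2BP2 read 8.44 and 8.68 (0.205), IRF2BP1 differed by 0.025 and IRF2BPL by -0.005. Of the 27 detected members, 20 lay within the 5th to 95th percentile of all detected genes, 6 lay below it and 1 above.

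**Figure D3:**
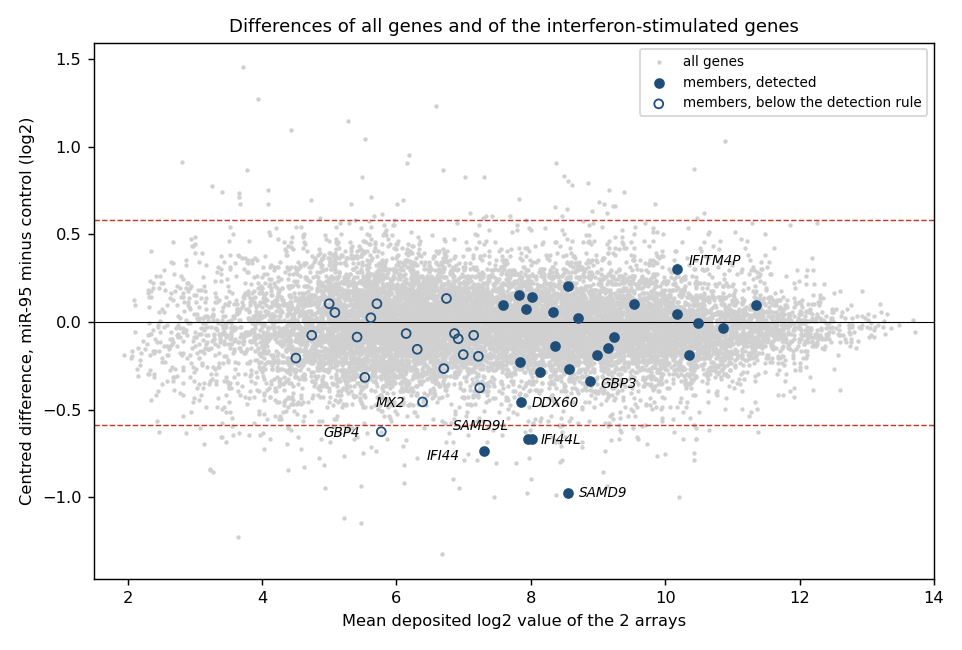
Centred log2 difference, miR-95 minus control (vertical axis), against the mean deposited log2 value of both arrays (horizontal axis) for 13864 genes (grey) and the 47 members (blue, open where below the detection rule); dashed lines mark 1.5-fold and n = 1 array per group. SAMD9, SAMD9L, IFI44 and IFI44L lie under the lower line among detected members, and GBP4 lies under it among those below the rule.

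Promoter windows were available for 36 members and 10370 genes in all. The longer spelling of the element was in 20 of the 36 members (55.6%), in 2.93% of the genes on the arrays and in 3.65% of the 27305 windows of the table. Of 12 detected members with the element, 10 had negative differences and the median was -0.255. Of 9 without it, 5 were negative and the median was -0.005. The 5 were SAMD9L (-0.665), HERC6 (-0.265), IFI35 (-0.185), RIGI (-0.145) and IRF2BPL (-0.005). The positive ones were IRF2BP1, IRF9, IRF1 and IRF2BP2. The groups with and without the element thus differ in kind of gene, and the part of this in the 2 medians was not tested. The other 6 detected members, IFITM2, IFITM4P, IRF2, IRF3, IRF7 and OASL, had no window and entered neither count, and 5 of them had positive differences. Among detected genes that are no members, 56.9% of the 130 with the element were negative (median -0.045), against 60.1% of the 5695 without it (median -0.035).

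Members that hold the element differed widely among themselves. SAMD9, with 1 match, was at -0.975, while HERC5 and IFIT5, with 3 each, were at -0.225 and -0.085. IFITM1 and IFITM3, with 2 each, were at 0.045 and 0.155. The number of matches did not order the differences of these genes. The shorter AAANNGAAA, which every match of the longer one contains, was in 24 of 36 members (66.7%) and in 10.6% of all windows. The gamma-activated site, spelled TTCNNNGAA and the same on both strands, was in 10 of 36 members (27.8%) and in 7.88% of all windows. It was in none of the windows of SAMD9, SAMD9L, IFI44 and IFI44L.

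Other genes of the pathway were taken from lists chosen by role. None of 22 interferon ligand genes had a probe set used here. Of 21 receptor and signalling genes 9 were measured and 7 detected, 4 negative and 3 positive, with a median of -0.065 and 0 past 1.5-fold. IFNGR1, a chain of the receptor for interferon gamma, read 7.43 on the control array and 7.87 on the miR-95 array (0.405). The kinase gene TYK2 read 8.68 and 8.92 (0.205). USP18, which removes ISG15 and dampens interferon signalling, read 10.60 and 10.43 (-0.205), and the kinase gene JAK2 read 7.98 and 7.89 (-0.125).

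Of 27 genes that sense nucleic acid or signal to IRF3, 20 were measured and 13 detected. Of these 13, 5 were negative and 8 positive, with a median of 0.055 and 0 past 1.5-fold. CGAS, the sensor of cytosolic DNA, read 9.99 on the control array and 9.55 on the miR-95 array (-0.475). Its downstream adaptor gene STING1 read 8.65 and 8.94 (0.255). TBK1, the kinase that activates IRF3, read 8.83 and 8.49 (-0.375), and NLRX1, a mitochondrial regulator, read 7.88 and 8.11 (0.195). The DNA sensor and its adaptor thus had differences of opposite sign.

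Of 54 other interferon-stimulated genes 28 were measured and 15 detected. Of these, 12 were negative and 3 positive, with a median of -0.075, and 0 passed 1.5-fold. The nuclear body gene SP100 read 9.44 and 9.18 (-0.295). The ubiquitin ligase genes TRIM38 and TRIM5 each differed by -0.235. SHFL, an inhibitor of ribosomal frameshifting, read 9.17 and 9.27 (0.065), and PML and UBE2L6 each differed by 0.025. The list had 80.0% negative differences after centring, against 59.4% of all detected genes, and its lowest member was less far from 0 than DDX60.

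Of 23 genes of antigen presentation by MHC class I, 7 were measured and 6 detected, 3 negative and 3 positive, with a median of 0.025. ERAP1, the aminopeptidase that trims peptides in the endoplasmic reticulum, read 8.58 on the control array and 9.25 on the miR-95 array. It was 1.55-fold higher (0.635) and was the only gene of these lists past 1.5-fold. The related ERAP2 differed by -0.075, CALR by -0.015 and TAPBP by 0.095.

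**Figure D4:**
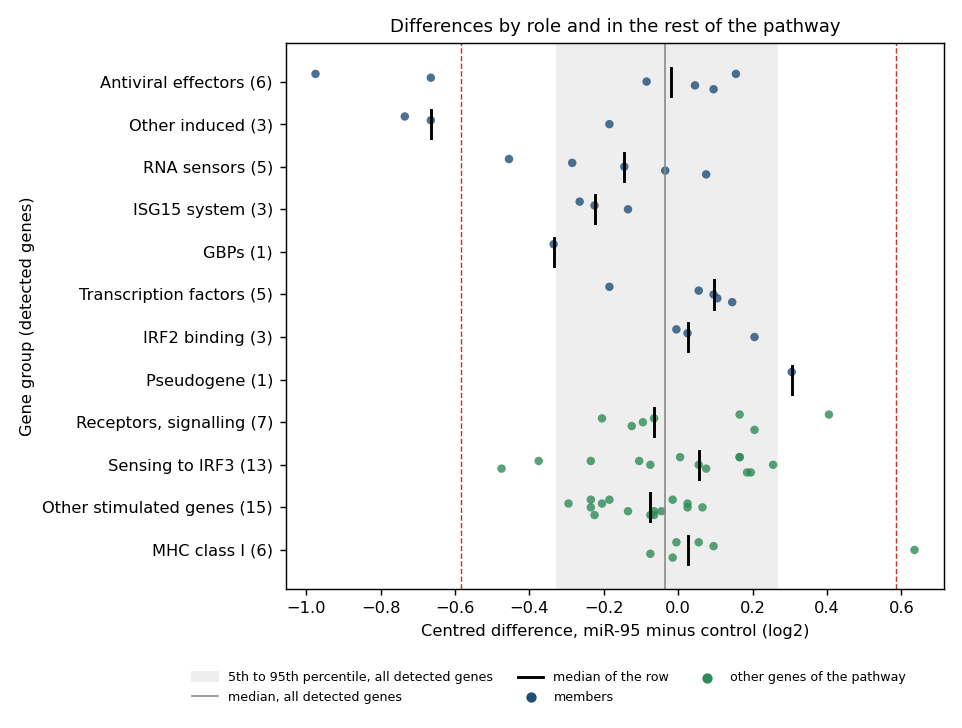
Centred log2 difference, miR-95 minus control (horizontal axis), of each detected gene by role (blue, members) and in 4 further lists of the pathway (green), with the number of genes in parentheses and n = 1 array per group. The grey band spans the 5th to 95th percentile of all detected genes (-0.325 to 0.265) and dashed lines mark 1.5-fold; 4 members lie beyond the lower line and ERAP1 beyond the upper one.

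Over all detected genes, 61 were at least 1.5-fold lower and 28 at least 1.5-fold higher after centring, and 45 and 37 with the values as deposited. The arrays had a Pearson correlation of 0.996 across 23641 probe sets. Of the markers of PC3 cells, 6 of 7 were measured and all 6 detected, among them EPCAM and KRT8, with a median difference of -0.075. KLK2 and KLK3, which PC3 cells lack, were below the detection rule. Of the 6 leukocyte markers measured, CD2, CD8A, CD14, CSF1R and LYZ were below it, and CD68, a lysosomal protein of many cells, differed by 0.105. The fibroblast markers LUM and DCN were below the rule. LUM read 7.33 on the control array, just under the median, and 6.04 on the miR-95 array. It was 2.51-fold lower (-1.325), where 0.988% of the 6783 genes below the rule were at least 1.5-fold lower. DCN differed by -0.175. Of the endothelial markers KDR was detected (0.285) and VWF was not. The part of these markers in the differences of the members was not tested.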

How the data were processed

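The authors deposited log2 expression values per probe set in a single table of 23641 probe sets and 2 arrays, made with Affymetrix Expression Console 1.2 per the submitters' processing notes. The log2 scale was read from the values, which run from 1.79 to 13.84. The column medians are 7.15 (control) and 7.16 (miR-95). The sources used here do not give the summarisation, background correction or scaling between arrays. Scaling of the arrays to each other would hide a shift of all transcripts together.

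Platform annotation gave 1 symbol to 14088 probe sets, several to 0 and none to 9553. RefSeq (GRCh38.p14) matched all 14088 and was used for names, gene order and promoter and microRNA sequences. Probe sets of a gene were averaged, arrays were centred on their medians over 13864 genes, and detected genes were called at 1.5-fold. The steps were tested on simulated data. No test was made, because each group has 1 array, which limits the precision of every value. Python 3.11.15, pandas 2.3.3 and statsmodels 0.14.6 were used.

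The spread between probe sets was the median (scaled to a normal SD), over 68 detected genes with several probe sets, of the widest gap between their differences divided by the square root of 2. All detected members are named, and other members by family. Of each further list the genes with the most positive and most negative differences are named (up to 2 each way), with any past 1.5-fold. The cell type markers were named after their values were seen. The members and lists were chosen with earlier results of these data known. The alternatives tried were centring by loess (span 0.4), by quantiles or not at all, other detection rules, the brightest probe set, an offset of 32, and members without the IRF2 binding proteins or, added after seeing the data, without RIGI. A comparison of the paralogs' protein sequences was planned and was not run, since none were used here.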

Additional observations from a re-analysis of the deposited data

How the results depend on the processing

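SAMD9, SAMD9L and IFI44L were at least 1.5-fold lower under each of the 11 alternatives except detection at the 75th percentile of the higher array. That rule kept 8 members, left these 3 genes and IFI44 below it, and gave 0 members at least 1.5-fold lower in place of 4, with a median difference of 0.02. Detection by the mean of both arrays left out IFI44 and gave 3, while detection at the 25th percentile and no filter on dim genes added GBP4 and gave 5. The count of members at least 1.5-fold higher was 0 under every alternative run. The median difference of detected members lay between -0.14 and 0.02. The gap between SAMD9 and SAMD9L lay between -0.31 and -0.301, and that between IFI44 and IFI44L between -0.08 and -0.0238. With the offset of 32, which pulls dim values together, IFI44L, SAMD9L and IFI44 were at -0.588, -0.590 and -0.612, close to the limit of 0.585 in size. EIF2AK2 and IRF2BPL, near 0, reached 0 or changed sign with the centring. No paired analysis was possible because each group holds 1 array. No sample could be left out for the same reason. Dim members, 20 of 47, are read least firmly.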
